A study of Mus musculus with 14 samples.

Results

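Interleukin-2 signalling was followed through 10 genes that carry the signal from the cell surface to its first transcriptional targets. They are the receptor chains Il2ra, Il2rb and Il2rg, the kinases Jak1 and Jak3, the transcription factors Stat5a and Stat5b, and the STAT5-responsive genes Cish, Socs2 and Pim1. The genes were picked by symbol from a deposited table of 14449 genes. All 10 were in the table, and all 10 were among the 12329 genes tested, those with a CPM (reads scaled by the authors to a common library size) over 1 in at least 3 libraries.

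IL-2 binds a receptor made of an α chain (CD25, from Il2ra), a β chain (CD122, from Il2rb) and the common γ chain (from Il2rg), which several other cytokine receptors share. The β and γ chains hold JAK1 and JAK3, which phosphorylate STAT5A and STAT5B, and the STAT5 proteins then enter the nucleus. Regulatory T cells carry CD25 at a high level and depend on IL-2 made by other T cells, and STAT5 maintains Foxp3, their lineage factor.

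The RNA came from 50000 sorted CD4+Foxp3eGFP+ T cells per library, which were taken from the lymph nodes of mice of the BALB/c strain on postnatal day 35. Mice lacking Il1rn, the gene of the IL-1 receptor antagonist, gave 7 libraries, of which 3 have the letter a in their title and 4 the letter b. Wild-type mice gave 7 libraries, likewise 3 with a and 4 with b. Mice of both genotypes carried the Foxp3eGFP reporter, and the labels name no treatment. The series asks how regulatory T cells differ where the IL-1 receptor antagonist is missing, a state in which mice develop arthritis. The labels do not explain the letters, called sets here, nor do they say that libraries came from separate animals, so p-values measure only the spread between these libraries, which may be technical. Il1rn is not among the genes analysed here and could not check the genotype labels.

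The libraries held 952021 to 3756559 reads in the genes of the table. A share of 20.34 to 65.78% of these reads fell on Rn45s, the ribosomal RNA precursor. It was under 50% in 8 libraries, called deep here, with 1654868 to 2805693 reads outside Rn45s, and over 50% in 6, called shallow, with 384360 to 905988. The deep libraries were 5 Il1rn-/- and 3 wild type, and the shallow ones 2 Il1rn-/- and 4 wild type. Every set a library was deep, while in set b only Il1rn-/- 3-b and Il1rn-/- 4-b were, so that set b had no deep wild-type library. Y-linked transcripts were present in 4 deep libraries (Il1rn-/- 3-b and 4-b, wild-type 1-a and 2-a). Summed Treg markers (Foxp3, Ikzf2, Ctla4, Il2ra, Tnfrsf18) reached a log2 CPM of 10.14 to 10.89 in Il1rn-/- libraries and 10.30 to 10.82 in wild type, against sums of 3.86 to 5.35 and 4.31 to 5.71 for 4 B-cell markers, and NK-cell markers had 0 to 4 reads per library.

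No gene of the pathway passed the test between genotypes, though the intervals allow differences of moderate size either way. By limma on the log2 CPM values, with the set as a term and Benjamini-Hochberg adjustment over all genes tested, 0 of the 10 genes passed an adjusted p of 0.05, and 0% of all 12329 genes did. At an unadjusted p under 0.05, 0 of the 10 and 679 of the 12329 were found, and limma voom on reads recovered from the values also called 0 genes. The Il1rn-/- minus wild type differences of the 10 genes lay between -0.29 (Il2rb) and 0.22 (Jak3) on the log2 scale, 6 of them positive. Their median was 0.10, beside 0.04 over all genes tested, of which 55.3% were positive. With the library group, deep or shallow, as the term in place of the set, the median of the 10 was -0.01 and 4 were positive, beside a median of 0.03 over all genes.

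**Figure D1:**
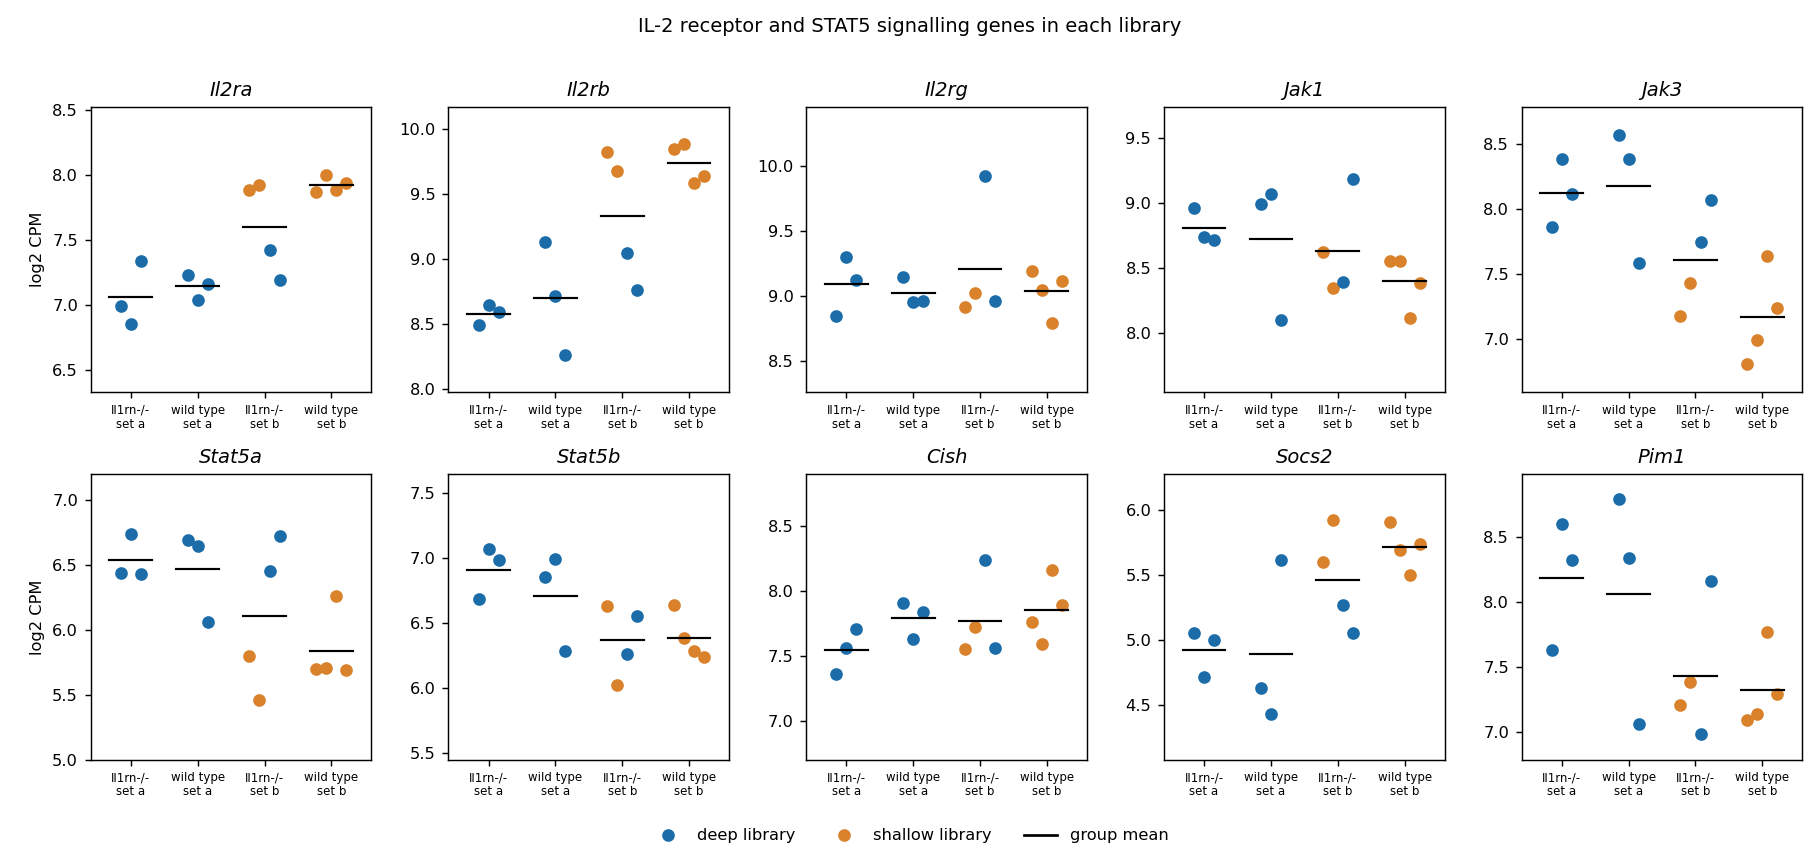
Level of each of the 10 genes (log2 CPM, 1 panel per gene) in the 14 libraries, by genotype and set; each point is 1 library, coloured by library group, and the line is the group mean. In all 10 panels the ranges of Il1rn-/- and wild type overlap within each set, while Il2ra and Il2rb separate the deep libraries (blue) from the shallow ones (orange).

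Il2ra, the α chain that gives the receptor its high affinity, was close in both genotypes once libraries of like depth were set together. In set a, Il2ra stood at a log2 CPM of 6.99, 6.85 and 7.34 in the Il1rn-/- libraries, against 7.23, 7.04 and 7.16 in wild type. In set b it stood at 7.88, 7.92, 7.42 and 7.19 in the Il1rn-/- libraries 1-b to 4-b, against 7.87, 8.0, 7.88 and 7.94 in wild type. The genotypes overlapped in both sets, and the low values of set b were those of the deep libraries Il1rn-/- 3-b and 4-b. Over all libraries the mean was 7.37 ± 0.41 in Il1rn-/- and 7.59 ± 0.42 in wild type (SD, n = 7 each), a difference of -0.22 ± 0.14 (SE; 95% interval -0.52 to 0.07; limma, adjusted p = 0.792). Among deep libraries alone the means were 7.16 ± 0.24 in Il1rn-/- (SD, n = 5) and 7.14 ± 0.10 in wild type (n = 3), and among shallow ones 7.90 ± 0.03 (n = 2) and 7.93 ± 0.06 (n = 4). With library group as the term the difference was -0.01 (95% interval -0.24 to 0.23; limma, adjusted p = 1). In bulk RNA, fewer cells that express a gene and less of its RNA per cell cannot be told apart.

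Il2rb, the β chain that recruits JAK1, had the same layout. In set a, Il2rb had a log2 CPM of 8.49, 8.65 and 8.59 in Il1rn-/- and 9.13, 8.72 and 8.26 in wild type. In set b the values were 9.83, 9.68, 9.05 and 8.76 in Il1rn-/- and 9.85, 9.89, 9.59 and 9.64 in wild type. The 3 set a libraries of Il1rn-/- lay within the wild-type range, and in set b the deep pair of Il1rn-/- lay below every wild-type library while the shallow pair lay inside their range. The overall means were 9.01 ± 0.54 in Il1rn-/- and 9.30 ± 0.62 in wild type, a difference of -0.29 ± 0.19 (SE; 95% interval -0.69 to 0.11; limma, adjusted p = 0.797). It was 0.01 (95% interval -0.30 to 0.32; limma, adjusted p = 1) with library group as the term, and 0.00 among the deep libraries alone.

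Il2rg, the common γ chain that recruits JAK3, had a narrow range over the 14 libraries apart from 1 library. Set a held a log2 CPM of 8.84, 9.30 and 9.12 in Il1rn-/- and 9.14, 8.95 and 8.96 in wild type. Set b held 8.91, 9.02, 9.92 and 8.96 in Il1rn-/- and 9.19, 9.04, 8.79 and 9.11 in wild type. The library Il1rn-/- 3-b, with 3079 reads on the gene, stood above all others, and the rest overlapped. The difference was 0.13 ± 0.17 (SE; 95% interval -0.24 to 0.49; limma, adjusted p = 0.893), and -0.01 without Il1rn-/- 3-b. In the reference transcripts, 28.66% of the 32-base stretches of Il2rg also occur in the overlapping gene model Gm20489, and since it is not known how the authors counted such reads, its level is uncertain.

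The kinase genes overlapped between genotypes in both sets. Jak1, which also serves interferon and IL-6 family receptors, had a log2 CPM of 8.96, 8.74 and 8.71 in Il1rn-/- and 8.99, 9.07 and 8.10 in wild type in set a. In set b Jak1 had 8.62, 8.34, 8.39 and 9.18 in Il1rn-/- and 8.55, 8.55, 8.11 and 8.38 in wild type. Il1rn-/- 4-b was the highest library, and wild-type 3-a and 3-b were the lowest. The Jak1 difference was 0.17 ± 0.18 (SE; 95% interval -0.21 to 0.55; limma, adjusted p = 0.860), and 0.08 with library group as the term.

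Jak3, which works only with the common γ chain, had the largest difference between genotypes in set b. Set a had a log2 CPM of 7.86, 8.39 and 8.12 in Il1rn-/- and 8.57, 8.39 and 7.59 in wild type. Set b had 7.18, 7.43, 7.75 and 8.07 in Il1rn-/- and 6.81, 6.99, 7.64 and 7.24 in wild type. In set b the deep Il1rn-/- pair was the highest, and the shallow Il1rn-/- pair lay inside the wild-type range. Over all libraries Jak3 averaged 7.83 ± 0.42 in Il1rn-/- and 7.61 ± 0.67 in wild type (SD, n = 7 each), a difference of 0.22 ± 0.19 (SE; 95% interval -0.18 to 0.63; limma, adjusted p = 0.834). That difference was -0.03 (95% interval -0.39 to 0.33; limma, adjusted p = 1) with library group as the term, and -0.14 among the deep libraries alone.

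Stat5a and Stat5b encode closely related proteins from neighbouring genes on chromosome 11. Of the 32-base stretches of Stat5a transcripts 11.28% also occur in Stat5b, and of those of Stat5b 14.87% occur in Stat5a, so reads could be divided between the pair. Stat5a had a log2 CPM of 6.44, 6.74 and 6.43 in Il1rn-/- and 6.69, 6.65 and 6.06 in wild type in set a. Stat5a in set b had 5.80, 5.46, 6.45 and 6.72 in Il1rn-/- and 5.70, 5.71, 6.26 and 5.69 in wild type. The deep pair Il1rn-/- 3-b and 4-b was again above every wild-type library of set b, and the shallow pair was not. The Stat5a difference was 0.18 ± 0.19 (SE; 95% interval -0.21 to 0.57; limma, adjusted p = 0.858), and -0.03 with library group as the term.

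Stat5b, the form more strongly required for regulatory T cells, was at a log2 CPM of 6.68, 7.07 and 6.98 in Il1rn-/- and 6.85, 6.99 and 6.28 in wild type in set a. Stat5b in set b was at 6.63, 6.02, 6.26 and 6.55 in Il1rn-/- and 6.64, 6.38, 6.28 and 6.24 in wild type. Its highest and its lowest library were both Il1rn-/- (2-a and 2-b), so the wild-type range lay inside the Il1rn-/- range. The difference was 0.08 ± 0.15 (SE; 95% interval -0.23 to 0.39; limma, adjusted p = 0.922), and -0.01 without wild-type 3-a. Stat5b also stood at -0.03 where CPM was taken over reads outside Rn45s, and at -0.02 with library group as the term.

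Cish, a STAT5-induced SH2 protein that damps signalling by the receptor, is shown with the start of its RefSeq transcript because that window held the only matches among these genes to the core motif bound by STAT5, TTCNNNGAA. The motif reads the same on both strands. The stretch chr9:107296654-107296683 (GRCm38.p6, plus strand, RefSeq promoter table) has the motif in capitals.
Cish start: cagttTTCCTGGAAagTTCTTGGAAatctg
The capitals cover bases 1 to 20 from the annotated start, with 2 bases between the matches. Windows of 300 bases (250 before to 50 after a start) were at hand for 8 of the 10 genes, 11 windows in all, and the motif was in 1 of them. Of all 32851 windows 8.3% held it and 0.46% held 2 or more matches. A match describes the letters and is not a measured binding site, and its absence from a window says nothing of the factor.

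Cish varied less over the 14 libraries than the other target genes. In set a its log2 CPM was 7.36, 7.56 and 7.71 in Il1rn-/- and 7.91, 7.63 and 7.84 in wild type. In set b it was 7.55, 7.72, 8.24 and 7.56 in Il1rn-/- and 7.76, 7.59, 8.16 and 7.89 in wild type. The genotypes overlapped, and the highest library of each genotype was its 3-b. Cish averaged 7.67 ± 0.28 in Il1rn-/- and 7.83 ± 0.19 in wild type (SD, n = 7 each), a difference of -0.16 ± 0.14 (SE; 95% interval -0.46 to 0.15; limma, adjusted p = 0.843). With library group as the term it was -0.15, and its direction was the same under every alternative run. Of its 32-base stretches 6.51% also occur in the gene model Gm17041.

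Socs2, an inhibitor of cytokine receptors that STAT5 induces, had the fewest reads of the 10, at 39 to 277 per library. Set a had a log2 CPM of 5.05, 4.71 and 5.00 in Il1rn-/- and 4.63, 4.43 and 5.61 in wild type. Set b had 5.60, 5.92, 5.27 and 5.05 in Il1rn-/- and 5.91, 5.69, 5.50 and 5.74 in wild type. Wild-type 3-a stood with the shallow libraries of set b, well above the other set a libraries. The Socs2 difference was -0.13 ± 0.19 (SE; 95% interval -0.52 to 0.26; limma, adjusted p = 0.897), and 0.09 with library group as the term.

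Pim1, a serine/threonine kinase that promotes survival and growth, had the widest spread among the deep libraries (SD 0.69, n = 8). Set a had a log2 CPM of 7.63, 8.60 and 8.32 in Il1rn-/- and 8.79, 8.34 and 7.06 in wild type. Set b had 7.21, 7.38, 6.98 and 8.16 in Il1rn-/- and 7.09, 7.14, 7.77 and 7.29 in wild type. The wild-type libraries held the highest value, and Il1rn-/- 3-b the lowest, and the ranges overlapped in both sets. The Pim1 difference was 0.12 ± 0.24 (SE; 95% interval -0.40 to 0.63; limma, adjusted p = 0.936). The gene model Gm26885 holds 10.96% of its 32-base stretches. The difference was -0.07 without wild-type 3-a, -0.01 without Il1rn-/- 4-b and -0.08 with library group as the term.

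**Figure D2:**
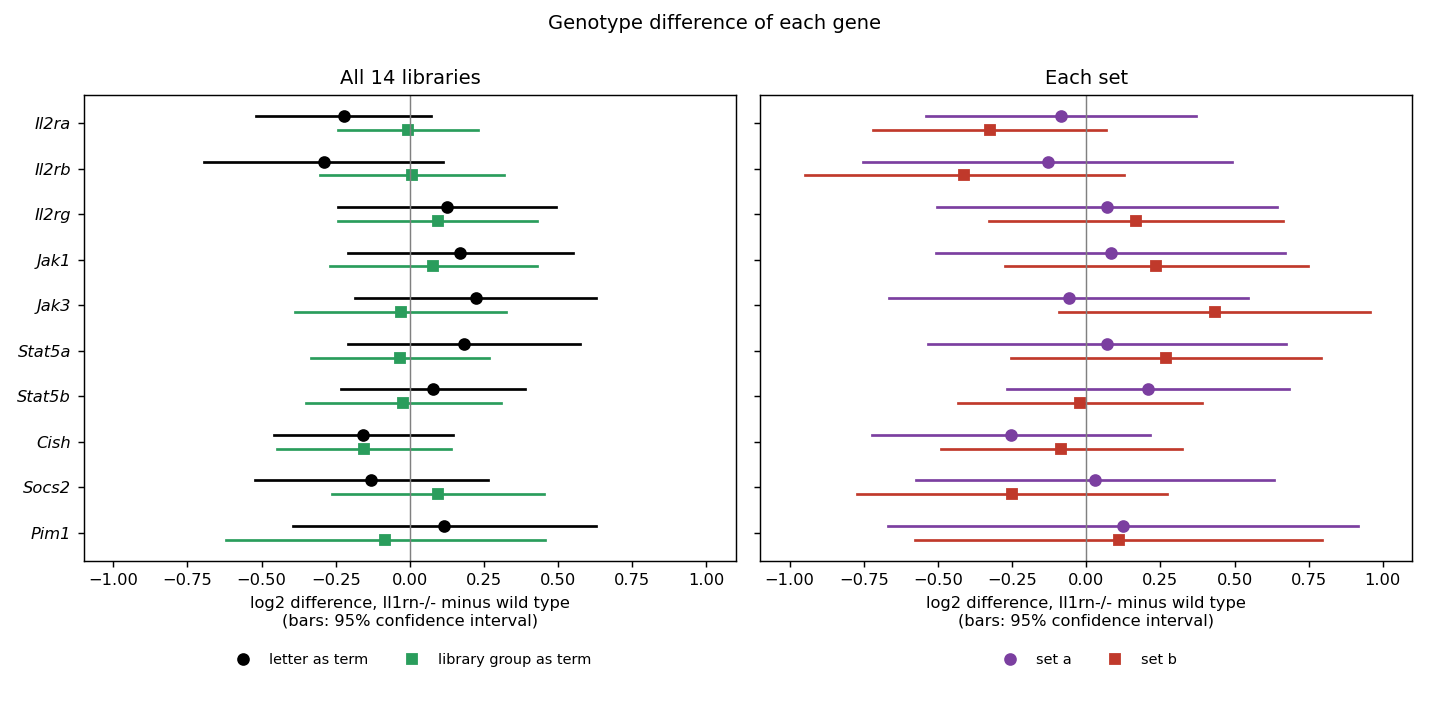
Il1rn-/- minus wild type difference of each gene on the log2 scale with its 95% confidence interval, over all 14 libraries (left; with the set or the library group as a term) and within each set (right). Every interval includes 0, and the estimate of each gene lies nearer to 0 with the library group as the term, though only slightly for Cish (-0.16 and -0.15).

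Within the sets, the comparison gave 0 of the 10 genes in set a and 0 in set b at an adjusted p of 0.05, against 0% of all genes in set a and 0% in set b (limma, a model of 4 groups). At an unadjusted p under 0.05 it found 0 of the 10 in either set, and 243 and 1848 of the 12329 genes in set a and set b; limma voom called 0 genes in both. The set b count over all genes rested on single libraries, with 230 genes called without Il1rn-/- 2-b, 7 without Il1rn-/- 1-b and 3 once wild-type 1-b was left out, and in set a 1 gene was called without wild-type 3-a. None of these was one of the 10. The largest set b differences were 0.43 for Jak3 (95% interval -0.09 to 0.96; limma, adjusted p = 0.417), -0.41 for Il2rb (-0.95 to 0.13; limma, adjusted p = 0.453) and -0.33 for Il2ra (-0.72 to 0.07; limma, adjusted p = 0.417). The same genes differed in set a by -0.06 (Jak3), -0.13 (Il2rb) and -0.09 (Il2ra), each with a limma adjusted p of 1. In set a the largest differences were -0.25 for Cish and 0.21 for Stat5b. Set b is where the genotypes also differed in library group, with 2 of 4 Il1rn-/- libraries deep and 0 of 4 in wild type. The same 2 libraries, Il1rn-/- 3-b and 4-b, held the Y-linked transcripts of set b (374 and 503 reads, against at most 2 in its other libraries). Over all libraries of set b, the genotype difference cannot be told apart from library group or from Y-linked transcripts. Its shallow libraries (2 Il1rn-/- and 4 wild type) share a library group and hold at most 2 Y-linked reads each. Among these alone the differences were -0.03 for Il2ra, 0.02 for Il2rb and 0.13 for Jak3. In set a, Y-linked transcripts were instead in wild-type 1-a and 2-a (609 and 808 reads).

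The set b minus set a difference of the genotype effect was tested directly. It passed for 0 of the 10 genes and for 0% of all genes (limma; 968 of the 12329 and 0 of the 10 at an unadjusted p under 0.05; limma voom called 0). Jak3 had the largest, 0.49 (95% interval -0.31 to 1.29; limma, adjusted p = 0.745). For 0 of the 10 genes did the ranges of Il1rn-/- and wild type fail to overlap, whether over all libraries (0.0324% of all genes), in set a (7.97%) or in set b (4.28%).

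Of the receptor chains, Il2rb and Il2ra were lower in the deep than in the shallow libraries, in both genotypes. Il2rb averaged 8.71 ± 0.28 in the deep and 9.75 ± 0.13 in the shallow libraries (SD, n = 8 and 6), a difference of -1.04 on the log2 scale. Il2ra averaged 7.15 ± 0.19 in the deep and 7.92 ± 0.05 in the shallow libraries, a difference of -0.76. These 2 of the 10 genes did not overlap between the library groups, beside 14.9% of all genes tested (1030 genes higher and 809, or 6.56% of all, lower in the deep libraries), a share near enough to that background that nothing particular to the pathway is read from it. With CPM over reads outside Rn45s, Socs2 did not overlap either, and the genes without overlap were 528 higher and 1270 lower in the deep libraries. The third chain, Il2rg, differed by 0.14 and overlapped, and that sign turns to -0.08 where CPM is taken over reads outside Rn45s. These are descriptions without a test, since the library groups were formed from the libraries themselves and are not groups of the study. The median over all genes was 0.125, so that Il2ra and Il2rb lay slightly farther below the typical gene than their differences state. With CPM over reads outside Rn45s that median was -0.074, so the typical gene turned in sign as Il2rg did.

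**Figure D3:**
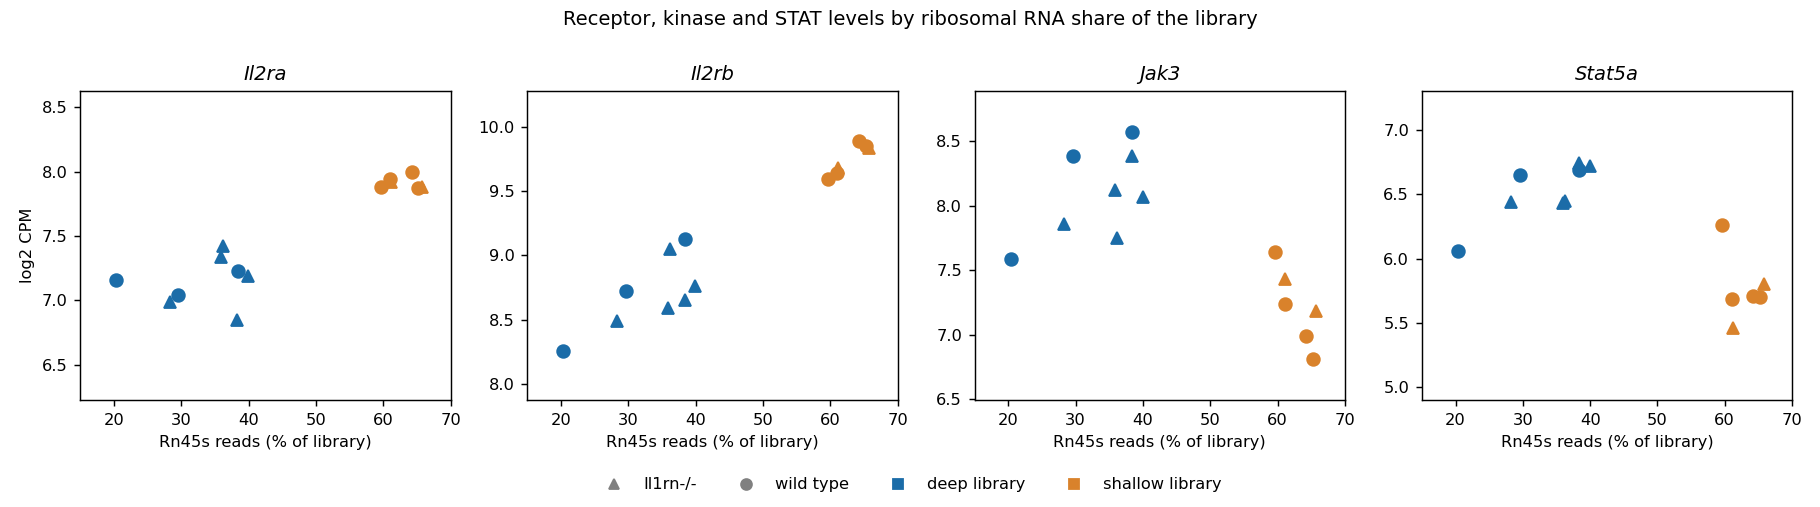
Level of Il2ra, Il2rb, Jak3 and Stat5a (log2 CPM) against the share of reads on Rn45s (% of the library), 1 point per library, with triangles for Il1rn-/-, circles for wild type and colour for library group. Il2ra and Il2rb are higher in all 6 shallow libraries than in any deep one, and Jak3 and Stat5a are mostly lower there, with triangles and circles mixed within each library group.

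Downstream of the receptor the direction was mixed. Jak3 averaged 8.09 ± 0.34 in the deep and 7.22 ± 0.30 in the shallow libraries, a difference of 0.88, and only wild-type 3-a (7.59) lay under the top of the shallow range (7.64). Stat5a averaged 6.52 ± 0.23 in the deep and 5.77 ± 0.27 in the shallow libraries, a difference of 0.75. Pim1 differed by 0.67 and Jak1 and Stat5b by 0.34 each, all overlapping. Socs2 was lower in the deep libraries by the same amount as Il2ra (-0.76) but overlapped through wild-type 3-a. With CPM over reads outside Rn45s the Socs2 difference was -0.97 without overlap. Cish differed by -0.05. Apart from Il2rg, the direction of each of the 10 was the same with libraries centred on their medians, with CPM over reads outside Rn45s and with TMM factors. Median centring and TMM factors hardly changed the deposited values (Il2ra -0.79 and -0.78), so their sameness adds little.

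Measures of the libraries moved with these levels. The share of the remaining reads on the mitochondrial ribosomal RNA Mt-Rnr2 was 8.68 to 16.16% in the deep and 2.82 to 4.01% in the shallow libraries. The summed CD8 markers (Cd8a, Cd8b1; T cells that also express Il2rb) had a log2 CPM of 3.23 to 4.53 in the deep and 4.68 to 5.51 in the shallow libraries, 22 to 104 reads in all. The summed CD4 T-cell markers had 10.10 to 11.18 in the deep and 10.94 to 11.32 in the shallow libraries. The summed Treg markers, which include Il2ra, went the other way, with 10.32 to 10.89 in the deep and 10.14 to 10.39 in the shallow libraries. The part of these measures in the levels of Il2ra and Il2rb was not tested.

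Set per kilobase of the principal transcript, so that genes can be compared, Il2rg was the most abundant in both library groups, at a mean of 348.79 ± 98.09 CPM per kb in the deep (SD, n = 8) and 310.13 ± 30.23 in the shallow libraries (n = 6). In the deep libraries Pim1 (102.79 ± 42.84), Il2rb (101.35 ± 20.17), Jak1 (91.20 ± 21.26), Cish (75.41 ± 14.97) and Jak3 (69.58 ± 16.32 CPM per kb) followed, and neighbours in that order differed by less than the larger of their SDs. Il2ra (32.46 ± 4.17 CPM per kb) lay below them, with a highest library of 38.82 against a lowest of 47.92 for Jak3. Stat5a (23.88 ± 3.50), Stat5b (20.48 ± 4.31) and Socs2 (14.52 ± 3.89 CPM per kb) came last. In the shallow libraries Il2rb was second at 205.52 ± 17.80 CPM per kb, above the range of Cish (77.76 ± 12.68), and Stat5a was last at 14.26 ± 2.86.

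Within the library groups, Jak3 and Pim1 moved together. Over the 8 deep libraries Pearson's r was 0.95 (exact permutation p = 0.000198, adjusted p = 0.0179 over 90 pairs of the 10 genes) and Spearman's rho 0.952 (exact permutation p = 0.00114, adjusted p = 0.0513). Without the 2 libraries farthest from the Jak3 median r was 0.914. Over the 6 shallow libraries r was 0.933 (exact permutation p = 0.00139, adjusted p = 0.0417) and rho 1.00 (exact permutation p = 0.00278, adjusted p = 0.0833), with r = 0.986 without the farthest 2. Both library groups thus showed high Pim1 where Jak3 was high. Each r pools Il1rn-/- and wild-type libraries, and the relation within a genotype was not tested. The r with Jak3 was also taken for the 5226 genes other than Jak3 with a mean log2 CPM of at least 4, Pim1 among them. It was at least that size, in either direction, for 0.344% in the deep and 2.16% in the shallow libraries. The pairing is thus not confined to Pim1. The libraries of a group share their depth class, and differences in depth and Rn45s share remain within it.

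**Figure D4:**
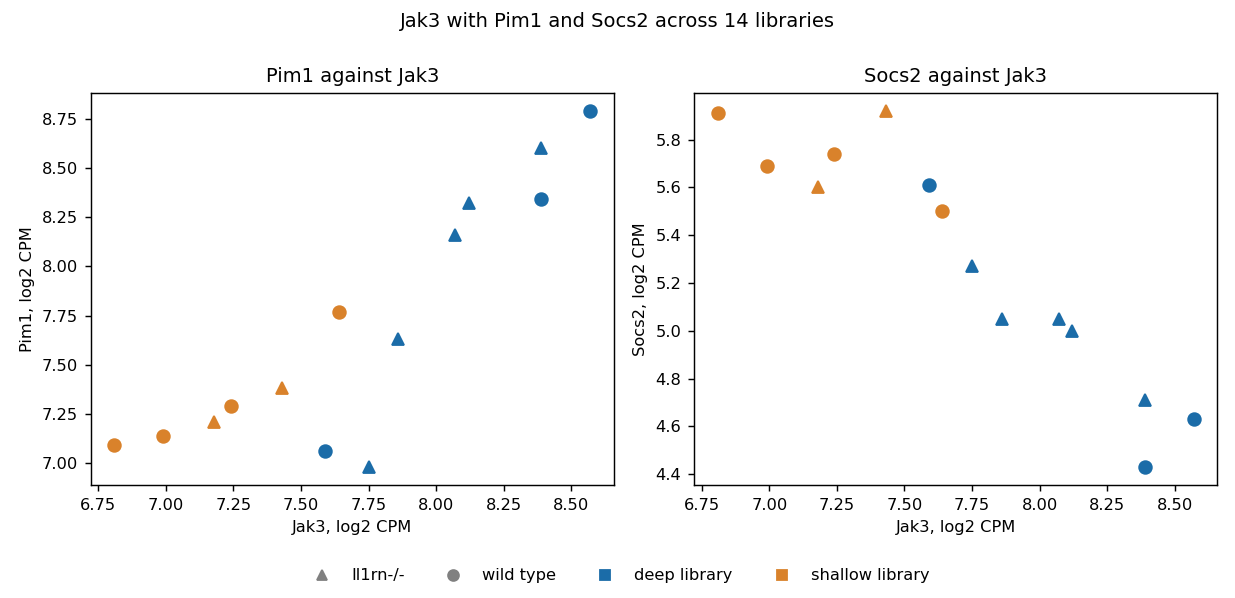
Pim1 (left) and Socs2 (right) against Jak3, all as log2 CPM, 1 point per library, with triangles for Il1rn-/-, circles for wild type and colour for library group. Pim1 is higher where Jak3 is higher within both colours, while Socs2 is lower where Jak3 is higher among the deep libraries (blue) and shows no clear order among the shallow ones (orange).

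Socs2 ran opposite to Jak3 in the deep libraries, with r = -0.933 (exact permutation p = 0.00102, adjusted p = 0.0417) and rho = -0.976 (exact permutation p = 0.000397, adjusted p = 0.0357). It was -0.91 without the 2 libraries farthest from the Jak3 median. In the shallow libraries r was -0.462 (exact permutation p = 0.365, adjusted p = 0.587; rho -0.257, exact permutation p = 0.658, adjusted p = 0.898) and 0.741 without the farthest 2, so no relation was shown there. An r with Jak3 of at least that size, in either direction, was found for 0.765% of the 5226 genes in the deep and for 49.1% in the shallow libraries. These were 3 pairs with an adjusted Pearson p under 0.05 of the 90 computed, and 23 had an unadjusted one. Il2ra and Il2rb gave r = 0.412 in the deep libraries (exact permutation p = 0.315, adjusted p = 0.554; rho 0.476, exact permutation p = 0.243, adjusted p = 0.547; r = 0.24 without the farthest 2) and 0.21 in the shallow ones (exact permutation p = 0.704, adjusted p = 0.773; rho 0.029, exact permutation p = 1, adjusted p = 1; r = -0.493 without the farthest 2). The α and β chains both separated the library groups, but no relation between them was shown within either group.

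The neighbouring parts of the pathway gave no gene that passed either (limma, smallest adjusted p = 0.787 in each list). Of 24 other γ-chain and JAK-STAT genes tested, 22 had a positive difference and 2 a negative one, with a median of 0.17. Over all genes tested 55.3% were positive, with a median of 0.04. When library group was the term, 20 were positive with a median of 0.13, beside 6706 of all 12329 and a median of 0.03. The genes share the same 14 libraries, and whether the list moved as a whole was not tested. Tyk2, an interferon and IL-12 receptor kinase, differed by 0.45 and by 0.15 with library group. The negative pair was Il7r (-0.25), the IL-7 receptor chain, and Il21r (-0.08), the IL-21 receptor chain. Il4ra (0.09), Il15ra (0.36), Jak2 (0.36) and Stat3 (0.09) were among the positive ones, and with library group as the term they were at -0.02, 0.12, 0.17 and 0.05.

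Among 30 other STAT5 targets in T cells, 17 were positive and 13 negative, with a median of 0.03. Pim2, a kinase related to Pim1, averaged 4.12 ± 0.51 log2 CPM in Il1rn-/- and 4.67 ± 0.58 in wild type (SD, n = 7 each), a difference of -0.54 ± 0.20 (SE; limma, adjusted p = 0.787) and -0.30 with library group. The survival genes Bcl2 (-0.04) and Mcl1 (0.16), the growth regulator Myc (-0.12), Foxp3 (0.03) and the inhibitory receptor Ctla4 (0.20) differed little for their spread. Il1rl1, the IL-33 receptor, differed by -0.46, Il18r1, an IL-18 receptor chain, by 0.34, and Osm, a cytokine gene, by 0.28. With library group as the term, Il18r1 (-0.14), Ctla4 (-0.11), Foxp3 (-0.05) and Myc (0.10) turned in sign, while Il1rl1 was at -0.44, Osm at 0.18, Bcl2 at -0.14 and Mcl1 at 0.12. Foxp3 averaged 8.59 ± 0.24 log2 CPM in Il1rn-/- and 8.56 ± 0.32 in wild type.

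Of 22 negative regulators of JAK-STAT signalling, 12 were positive and 10 negative, with a median of 0.04. The inhibitors Socs1 (-0.31) and Socs3 (0.28), which also stand among the STAT5 targets, pointed opposite ways, and they were 0.01 and -0.08 with library group as the term. The extremes were Pias3 (0.90) and Usp18 (0.48), against Dusp5 (-0.67) and Socs7 (-0.37). They were at 0.39, 0.55, -0.61 and -0.48, in that order, with library group as the term. Pias3, Dusp5 and Socs7 had at most 89 reads in any library. In the PI3K, AKT and mTOR arm, 12 of 22 were positive and 10 negative with a median of 0.02, from Mlst8 (0.54) and Phlpp1 (0.37) to Rps6 (-0.70) and Foxo3 (-0.54). With library group as the term Mlst8 was at 0.42 and Phlpp1 at 0.16, while Rps6 (0.24) and Foxo3 (0.22) turned positive. In the SHC, RAS and MAPK arm, 7 of 18 were positive and 11 negative with a median of -0.12. The median was 0.05 with library group as the term. Differences in this arm ran from Grb2 (0.36) and Rasa1 (0.34) to Sos2 (-0.67) and Mapk3 (-0.35). These genes were at 0.27, 0.08, -0.84 and -0.21, in that order, with library group as the term. Sos2 had at most 46 reads and Mapk3 at most 31 in any library.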

How the data were processed

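Per the labels' protocols, the Qiagen RNeasy Micro kit gave the RNA, Smart-Seq2 the libraries and Cuffquant 2.2.1 the quantification. Cuffnorm, Cufflinks 2.2.1, TopHat2 2.0.10 and BWA are listed in the submitters' processing notes. Not given in the sources used here are the build and annotation, how strand and shared reads were handled, and which tool made the values. The authors deposited log2 CPM values with a small prior, in 1 table of 14449 genes, 165 of them without a symbol. The lowest value, -3.58, stands for 0 reads in every library. Steps above it gave whole reads (100% of values within 0.001 of a whole number), which were used for depth, reads per gene, TMM and voom. The deposited CPM sum to between 620415 and 1450869 per library, so they were not scaled to the total of this table. The libraries had no stated molecular identifiers, so a read need not be a separate molecule.

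Main tests used the log2 values in limma 3.58.1 (R 4.3.3), fitted with genotype and set and with an intensity trend, two-sided, with Benjamini-Hochberg adjustment over 12329 genes (CPM over 1 in at least 3 libraries) at 0.05. A model of 4 groups gave each set and their difference. Other steps used Python 3.11.15, numpy 2.4.6, scipy 1.17.1 and matplotlib 3.10.9. The limma fits and the TMM factors were tested on simulated data. Transcript lengths and shared 32-base stretches came from GENCODE transcripts, and promoter windows from RefSeq. The members and gene lists were chosen with earlier results of these data known. Named genes were all members, of each list the 2 largest positive and the 2 largest negative differences at a mean log2 CPM of at least 2, and a few well-known genes, 1 of which is not reported here. Alternatives covered the filter, the prior, scaling, the set term, a replicate block, the variance model, library weights, library group, deep or shallow libraries alone and each library left out. Chosen after seeing the data were Y-linked transcripts as a further term and the scalings of the deep minus shallow differences. The pairs of members, the levels per kilobase and the search for outlying libraries were not among the planned tests. Pim1 and Socs2 were set against other genes for their r with Jak3 because of the pair results.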

Additional observations from a re-analysis of the deposited data

Results flagged for a closer look

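In 40 groups of 4 or 7 libraries (each gene by genotype, overall and in set b), 4 had a highest library far from the rest. For separate groups of like libraries chance gives about 1 in 20. The groups of 4 lie inside those of 7, and Il2rg in Il1rn-/- 3-b was flagged in both. All but the wild-type groups of set b mix deep and shallow libraries, so the 4 cannot be set against that rate. Il2rg in Il1rn-/- 3-b stood at a log2 CPM of 9.92, against 9.30 for the next Il1rn-/- library and 9.02 for the next in set b. Cish in the same library stood at 8.24, against 7.72 for the next Il1rn-/- library. Stat5a in wild-type 3-b stood at 6.26, against 5.71 for the next wild-type library of set b. Il1rn-/- 3-b also had the highest Mt-Rnr2 share (16.16% of reads outside Rn45s), and wild-type 3-b was the shallowest library (952021 reads). The part of either in these values was not tested.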

How the results depend on the processing

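Each of the 10 genes missed the 0.05 threshold under every alternative run, in every contrast (lowest limma adjusted p 0.211, Il2ra in set b without Il1rn-/- 2-b). The direction over all libraries was the same in 126 of 150 values from other settings and in 136 of 140 with a library left out, and Cish (-0.27 to -0.11) and Jak1 (0.06 to 0.24) kept it throughout. With library group as the term, reversed values were Il2rb 0.01, Jak3 -0.03, Stat5a -0.03, Stat5b -0.02, Socs2 0.09 and Pim1 -0.08. Y-linked transcripts added as a term gave Il2ra 0.02, Il2rb 0.08, Stat5a 0.00, Stat5b -0.04, Socs2 0.06 and Pim1 -0.06. Deep libraries alone gave Il2ra 0.01, Il2rb 0.00, Jak3 -0.14, Socs2 0.13 and Pim1 -0.12, and shallow ones alone Il2rb 0.02, Il2rg -0.07, Stat5a -0.21, Stat5b -0.06, Socs2 0.05 and Pim1 -0.02. CPM over reads outside Rn45s gave Stat5b -0.03. With a library left out, Il2rg ranged from -0.01 to 0.18, Stat5b from -0.01 to 0.15 and Pim1 from -0.07 to 0.25. The deep minus shallow difference of Il2ra moved from -0.76 to -0.98 with CPM over reads outside Rn45s. That shift was not particular to Il2ra, since Il2rb moved from -1.04 to -1.25 and the median over all genes from 0.125 to -0.074. The cause of the reversed directions was not tested.

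Over all genes, the count that passed was 0 for each contrast in the main models. It became 2 with deep libraries alone and 13 with shallow ones alone. In set a it ranged from 0 to 1 with a library left out (1 without wild-type 3-a). In set b it was 3 with CPM over reads outside Rn45s and 6 with no intensity trend, and with a library left out it ranged from 0 to 230 (leaving out Il1rn-/- 2-b gave 230, leaving out Il1rn-/- 1-b gave 7, and leaving out wild-type 1-b gave 3). The difference between sets gave 2 with no intensity trend. Same-numbered libraries did not deviate together from their group means (r of -0.151 to 0.001), so no pairing by number was seen. These values cannot decide whether libraries were paired, since groups held 3 or 4 libraries and Il1rn-/- set b mixed deep and shallow ones. A model with a replicate block passed 0 genes in each contrast, with Il2ra at -0.22. With 39 reads in its lowest library, Socs2 has the fewest reads of the 10, which limits its precision.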

Other observations

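After the mean of each library group was removed, the genes whose level over the 14 libraries was most like that of Il2ra, among 5227 with a mean log2 CPM of at least 4, were led by H3f3a (r = 0.787), U2af1 (0.786), Nmi (0.784) and Wasf2 (0.760). Of the other genes of the pathway, Cish was nearest at r = 0.56, followed by Il2rg at 0.465, Il2rb at 0.392 and Socs2 at 0.37, and Stat5b was farthest at -0.452. These are descriptions over libraries that share their preparation, with no test.

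Wild-type 3-a, the library with the lowest Rn45s share (20.34%), was the lowest of the set a libraries for Il2rb, Jak1, Jak3, Stat5a, Stat5b and Pim1, and the highest for Socs2.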
